A study of Mus musculus with 14 samples.

Results

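Of 14659 consensus H3K4me3 regions mapped in mouse LSK cells, 588 (4.01%) lay between genes. They overlapped no annotated gene body and were more than 3 kb from every gene start of the GRCm38 RefSeq annotation. Consensus regions are the union of 7 peak lists, with overlapping or touching peaks merged. The remaining regions were 11774 promoter regions within 1 kb of a gene start (80.3%), 2155 regions inside a gene and over 1 kb from a start (14.7%), and 142 regions outside genes at 1 to 3 kb from a start. The values that chose the intergenic regions were their positions alone, and no H3K4me3 level entered the choice. At the 3 kb boundary, the nearest regions left out were 2968 bp from Sema3b and 2992 bp from Gclc, and the nearest regions kept were 3004 bp from 1700042G07Rik and 3029 bp from 1700122O11Rik.

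LSK cells are the Lin-Sca1+cKit+ fraction of bone marrow (BM), which holds hematopoietic stem cells and multipotent progenitors. They were sorted, after magnetic enrichment, from bones that included the tibias and femurs. The mice were male C57BL/6J, kept for months on a high-fat diet (HFD) or a low-fat diet (LFD). CUT&Tag, in which an antibody guides a transposase to chromatin, was run with an H3K4me3 antibody, and 3 HFD-LSK and 4 LFD-LSK libraries each gave 1 peak list. The assay is named here as in the methods of the study, while the library titles say CUT&RUN. The labels give no genotype, age, or diet time for single libraries. Neither they nor the methods say whether a library came from 1 mouse or from pooled mice, so p-values measure the spread between libraries, which may be partly technical. For the 7 IgG control libraries no peak list was used here.

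H3K4me3 is deposited by the SET1 and MLL complexes and is best known from active promoters, most of them in CpG islands. A sharp H3K4me3 peak away from any annotated gene is known to arise at starts of transcripts that the annotation lacks, at the distant starts of long primary transcripts that carry microRNAs (miRNAs), and at the strongest enhancers. The lists cannot tell these apart.

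The lists held 6921 to 13094 peaks. No list gives its sequencing depth, so it was recovered from the fold and p of the peaks. The fewest fragments seen at the summit of a called peak were 16, 8, and 4 in the HFD-LSK libraries, by replicate number, and 21, 10, 8, and 9 in the LFD-LSK libraries. In multiples of the mean coverage of the library, these calling limits ran from 29.8 in HFD-LSK replicate 2 and 34.5 in HFD-LSK replicate 3 to 101 in LFD-LSK replicate 4, and a region under its limit is missing from that list. Of 14 LSK marker genes, 10 to 12 had a peak within 1 kb of the start in each HFD-LSK list and 7 to 11 in each LFD-LSK list. Ly6a, which encodes the Sca1 used in the sort, and Lmo2 had none in any list. None of 9 mature neutrophil and 8 monocyte and macrophage markers was marked. Of the B, T and NK, erythroid, and endothelial and stromal markers none was marked in all 7 lists. The erythroid marker Klf1 was marked in 5, which were every HFD-LSK list and LFD-LSK replicates 1 and 3. The endothelial and stromal list reached 5 of 10 in HFD-LSK replicate 2 and at most 2 in any LFD-LSK list.

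Several of the intergenic regions called in 5 or more lists stood upstream of miRNA genes. These loci were picked out after their values were seen. The mature miRNAs encoded there (RefSeq, GRCm38.p6) are printed 5′ to 3′ with the seed, bases 2 to 8, in capitals, because the seed sets which transcripts a miRNA recognizes and shows which of these genes encode one family. In the loci of chromosomes 13 and 15, all 5 let-7 sequences carried 1 seed. At least the mature let-7f, let-7c, and miR-24 sequences are also encoded elsewhere in the genome.
let-7a-5p: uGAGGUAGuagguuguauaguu
let-7f-5p: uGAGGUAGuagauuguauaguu
let-7d-5p: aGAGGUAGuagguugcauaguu
let-7c-5p: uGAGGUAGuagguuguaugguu
let-7b-5p: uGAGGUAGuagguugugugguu
The locus on chromosome 8 holds 2 miRNA transcription units that point away from each other, Mir181c and Mir181d on one side and Mir23a, Mir27a, and Mir24-2 on the other. The miR-181 sequences shared 1 seed, and the other 3 had a seed each.
miR-181c-5p: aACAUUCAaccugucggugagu
miR-181d-5p: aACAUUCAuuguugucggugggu
miR-23a-3p: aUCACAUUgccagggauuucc
miR-27a-3p: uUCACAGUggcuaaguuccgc
miR-24-3p: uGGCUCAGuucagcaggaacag
The remaining loci encode miR-142a, which is abundant in blood cells, miR-155 and miR-146a, both known regulators of inflammatory signaling, and miR-30a.
miR-142a-3p: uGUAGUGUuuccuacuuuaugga
miR-155-5p: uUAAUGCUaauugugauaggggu
miR-146a-5p: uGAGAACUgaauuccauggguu
miR-30a-5p: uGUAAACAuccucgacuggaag

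At let-7, 1 intergenic region of 1753 bp (chr13:48545121-48546873) was called in all 7 lists and lay 6.85 kb upstream of Mirlet7a-1, with Mirlet7f-1 at 7.20 kb and Mirlet7d at 9.01 kb on the same strand. Its summits held 62, 71, and 24 fragments in HFD-LSK and 83, 63, 21, and 33 in LFD-LSK. These are 207 to 309 times the mean coverage in HFD-LSK and 157 to 389 times in LFD-LSK, and the diets overlapped. On chromosome 15, the widest intergenic region (chr15:85669481-85673463, 3983 bp) lay 33.1 kb upstream of Mirlet7c-2 and 33.9 kb upstream of Mirlet7b, beyond the noncoding gene Lncppara. Its summits held 57, 73, and 33 fragments in HFD-LSK and 67, 48, 37, and 25 in LFD-LSK. Both let-7 regions were thus among those called in every library, at summits with more fragments than the fewest that each library called. By fold, however, the let-7a-1 region was weak in HFD-LSK replicate 3, at 3.27 where the lowest of that list was 2.84.

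On chromosome 8, 5 intergenic regions stood between Mir181c and Mir23a within 21.6 kb (chr8:84182658-84204282), and each lay upstream of both units because these are divergent. The region nearest to Mir181c was 3.70 kb from it, was 1803 bp wide and was called in 5 lists, with 32, 42, and 17 summit fragments in HFD-LSK and, of the LFD-LSK libraries, 27 in replicate 2 and 23 in replicate 3. A region 6.36 kb from Mir23a was called in 6 lists, with 30, 46, and 20 fragments in HFD-LSK and 27, 26, and 20 in LFD-LSK replicates 2 to 4. The other 3 were called in 1, 3, and 4 lists. LFD-LSK replicate 1, which needed the most fragments for a call, called none of the 5.

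At Mir142, a region 6.78 kb upstream of the hairpin was called in 5 lists with 17 to 38 fragments. Mir142b, on the opposite strand, overlaps the same hairpin, so the region lies downstream of that gene. At Mir155, a region 10.4 kb upstream, ahead of the host transcript Mir155hg, was called in 5 lists with 10 to 47 fragments, and at Mir30a a region 14.9 kb upstream was called in 5 lists with 12 to 32. A region 20.6 kb upstream of Mir30d was called in 6 lists, with 11 to 56 fragments, and was 2047 bp wide. The region 10.4 kb upstream of Mir146 was weaker, with a call in 3 lists and 25 fragments in HFD-LSK replicate 2, 4 in HFD-LSK replicate 3, and 18 in LFD-LSK replicate 2.

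**Figure D1:**
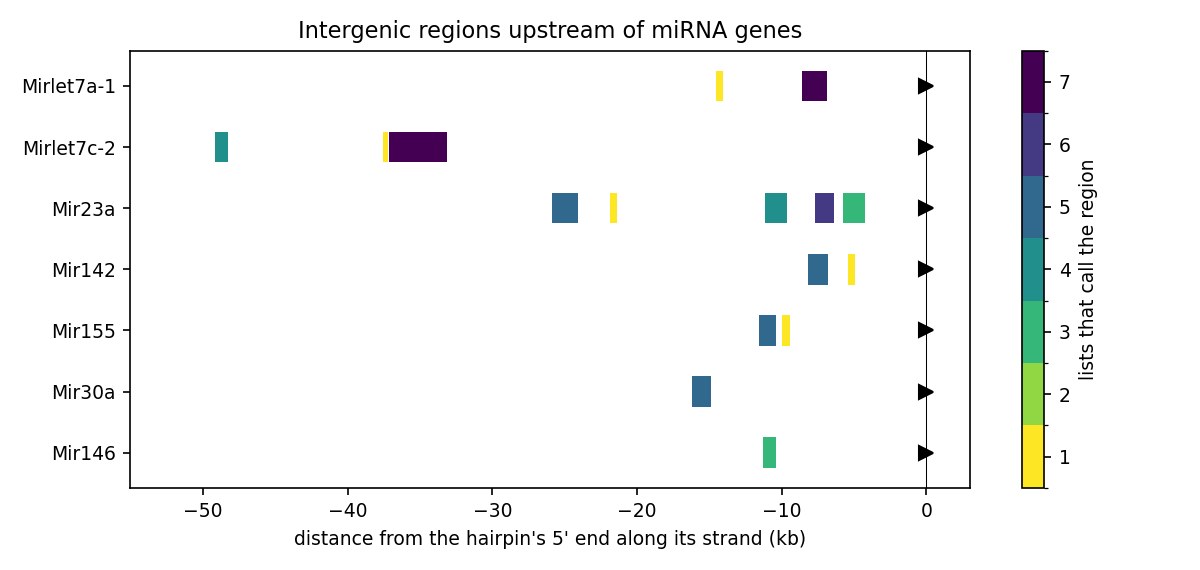
Intergenic H3K4me3 regions near 7 miRNA genes, placed by distance in kb from the 5′ end of the hairpin along its strand (arrowhead at 0, transcription to the right), with color for the number of lists that call each region. At Mirlet7a-1 and Mirlet7c-2 a region was called in 7 lists, and at Mir23a 5 regions stood 4.24 to 24.1 kb upstream.

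In all, 14 intergenic regions (2.38%) had a miRNA gene as a flanking gene, against 5.61% of all consensus regions that overlapped or flanked one. The share was 8.33% among the 72 intergenic regions called in 5 or more lists (6 regions) and 1.53% among the 326 called in 1 list (5 regions). No share of all consensus regions by number of lists is set beside these, so the rise is not read as particular to intergenic regions. Of the 14, 10 lay beyond the 5′ end of a flanking miRNA gene and 4 beyond the 3′ end alone. The 5 regions between Mir181c and Mir23a are among the 14 and share 1 locus, so these counts are descriptions and were not tested.

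The genes that flank the intergenic regions were mixed in kind. A protein-coding gene was the nearest gene on at least 1 side of 406 regions, a long noncoding RNA gene of 303, with pseudogenes next. The median distance to the nearest gene start was 11.8 kb, with quartiles of 6.40 and 23.8 kb and a maximum of 448 kb. By distance, 95 regions lay at 3 to 5 kb, 155 at 5 to 10 kb, 156 at 10 to 20 kb, 140 at 20 to 50 kb, 27 at 50 to 100 kb, and 15 farther. The nearest protein-coding gene body was at a median of 15.1 kb. The nearest gene of any kind turned its 3′ end to the region in 321 cases and its 5′ end in 243, and had no known strand in 24. Both flanking genes started at the region in 107 cases (18.2%), both ended there in 135 (23.0%), and in 295 (50.2%) 1 did each. The rule leaves out regions within 3 kb of a gene start but sets no distance to a 3′ end. These counts are therefore tilted toward 3′ ends by the rule, and no preference was read from them.

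**Figure D2:**
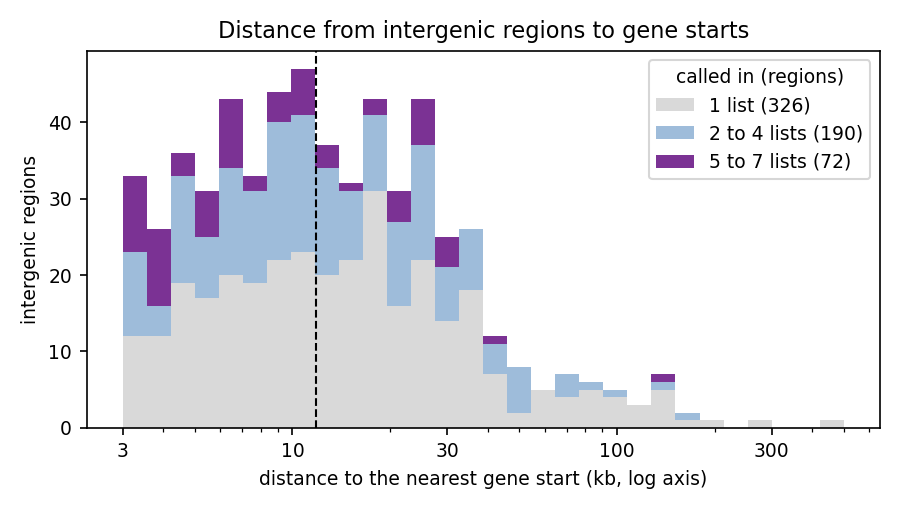
Number of intergenic regions by distance to the nearest gene start in kb on a log axis, stacked by the number of lists that call them. The dashed line is the median of 11.8 kb, and the lower end at 3 kb is set by the rule.

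RefSeq leaves out many noncoding transcripts, so the newer GENCODE M39 annotation was asked, by gene order alone, which genes it places between the same 2 flanking genes. Both flanks were found in the same order for 441 regions (75%). GENCODE had at least 1 further gene in the gap for 272 of these (61.7%), and for 38 of the 52 found among regions called in 5 or more lists (73.1%). A protein-coding gene stood in the gap for 1 region. Since coordinates were not converted between builds, whether such a gene overlaps the region was not tested. No share for other gaps between genes is set beside these, and a longer gap has more room for such a gene.

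Most intergenic regions were seen in few libraries. The median was 1 list of 7, against 6 for promoter regions and 1 for regions inside genes, and 326 regions (55.4%) were called in 1 list, 108 in 2, 51 in 3, 31 in 4, 31 in 5, 19 in 6, and 22 (3.74%) in all 7. Promoter regions were called in all 7 lists in 36.1% of cases. Seen the other way, intergenic regions made up 11.7% of all consensus regions called in 1 list and 0.501% of those called in 7. The median consensus width, which covers the union of a region's peaks, was 399.5 bp for 1 list, 1037 bp for 4, and 1462 bp for 7.

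**Figure D3:**
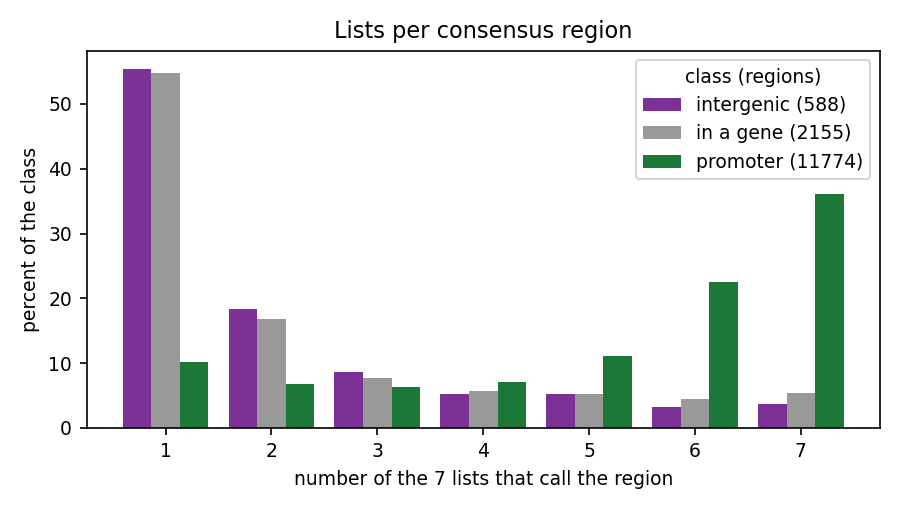
Percent of the 588 intergenic regions, the 2155 regions inside genes and the 11774 promoter regions by the number of lists that call them. Intergenic regions and regions inside genes peaked at 1 list (55.4% and 54.8%), and promoter regions at 7 (36.1%).

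Of the 326 regions of a single list, 153 came from HFD-LSK replicate 3, 133 from HFD-LSK replicate 2 and 29 from LFD-LSK replicate 3. LFD-LSK replicates 2 and 4 gave 6 and 5, and replicate 1 of either diet gave 0. Their median summit was 6 fragments in HFD-LSK replicate 3, whose fewest were 4, and 14 in HFD-LSK replicate 2, whose fewest were 8. The libraries with the lowest calling limits in multiples of mean coverage thus held 286 of these 326 regions.

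In the lists as deposited, the median intergenic region was weaker than the median promoter region inside every library. Fold enrichment is the height of a peak over its local background, with a pseudocount of 1 added to each. It depends on the library, so peaks were ranked within each list from the top (0%) to the bottom (100%). The median intergenic region stood at 77.8% ± 3.75 (SD, n = 7 libraries) and the median promoter region at 45.7% ± 1.67. The difference was 32.1 percentage points ± 4.52, reached 39.3 in HFD-LSK replicate 2, and had the same sign in 7 of 7 libraries (two-sided exact permutation test by sign flips, p = 0.0156, which is the minimum for 7 libraries, and adjusted p = 0.0156 over 2 comparisons). In fragments at the summit, the medians of intergenic and promoter regions were 28 and 43 in HFD-LSK replicate 1, 18 and 47 in replicate 2, and 7 and 17 in replicate 3. In LFD-LSK they were 38 and 49, 18 and 34, 14 and 20, and 15 and 21. Peaks in intergenic regions were also narrower, with a median of 507 bp ± 92.7 against 883 bp ± 226 (difference -376 bp ± 148, narrower in 7 of 7 libraries, exact sign-flip permutation test, two-sided, p = 0.0156). A region present in few lists and near the calling limit is small by either measure. The classes are not matched in this, since 36.1% of promoter regions and 3.74% of intergenic regions were in all 7 lists. Among regions called in all 7, the median summit was 189 times the mean coverage for intergenic regions and 234 times for promoter regions. How far the calling limit accounts for the differences was not tested. For regions called in at least 2 lists, which does not match the classes either, the rank difference was 28.1 points. With a common calling limit it was 21.8 points and its exact permutation p was 0.0312, above the minimum for 7 libraries. The 7 libraries thus did not all share the sign of the rank difference under that limit. With equal numbers of peaks the width difference was -239 bp.

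Within the 22 intergenic regions called in all 7 lists, the order by mean fold rank began with a region between the noncoding Gm19572 and Elovl5, an elongase of polyunsaturated fatty acids (chr9:77910111-77911698, 5.67 kb from Elovl5). It stood at 3.77%, 2.69%, and 49.9% from the top in HFD-LSK and at 3.01%, 4.41%, 7.63%, and 1.10% in LFD-LSK. Its summits held 79, 88, and 23 fragments in HFD-LSK and 88, 61, 31, and 41 in LFD-LSK. HFD-LSK replicate 3 was thus far down by rank, although its 23 summit fragments were above that library's promoter median of 17. The local background that its fold implies there was 18.9 times the level of the library as a whole, and 1.00 to 2.10 times in the other 6.

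The next was a region between the tRNA gene n-TNgtt9 and Gm13355 (chr2:18607522-18610009, 2488 bp), whose nearest coding gene was Commd3 at 62.4 kb. It stood at 4.82%, 2.38%, and 23.5% in HFD-LSK and at 15.8%, 33.9%, 1.08%, and 5.14% in LFD-LSK. The others of the 10 nearest the top were the 2 let-7 regions and those between Gm30149 and Gm26176, Gm3363 and Carlr, Slc2a3 and Foxj2, Slc7a15 and Pum2, Gm35106 and Gm19024, and Rpl30-ps6 and Ptma. Slc2a3 encodes the glucose transporter GLUT3, Foxj2 a forkhead factor, Pum2 an RNA-binding repressor of translation and Ptma prothymosin alpha. Mean ranks of these 10 ran from 10.4% to 39.1%.

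Ranks of 1 region moved widely between libraries. Across the 22, the distance from the best to the worst rank of a region was 32.8 to 95.0 points with a median of 65.5, and for the 4252 promoter regions called in all 7 lists the median was 58.8. Summit height, in multiples of mean coverage, differed by a median of 1.84 times between the lowest and the highest library, from 1.15 to 3.51 times, against a median of 1.91 for those promoters. In 17 of the 22 regions, at least 1 list had a local background over 5 times its general level. That general level was only 0.0201 to 0.113 on the scale of the lists, so such multiples can rest on very few background fragments. The let-7a-1 region gives the extreme: in HFD-LSK replicate 3 its 24 fragments stood over a local background of 56.7 times the general level and ranked at 99.7%, while in HFD-LSK replicates 1 and 2 the background was 1.0 and the ranks were 13.0% and 8.71%. By summit fragments over mean coverage, that library was at 207 and the other 6 at 157 to 389.

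**Figure D4:**
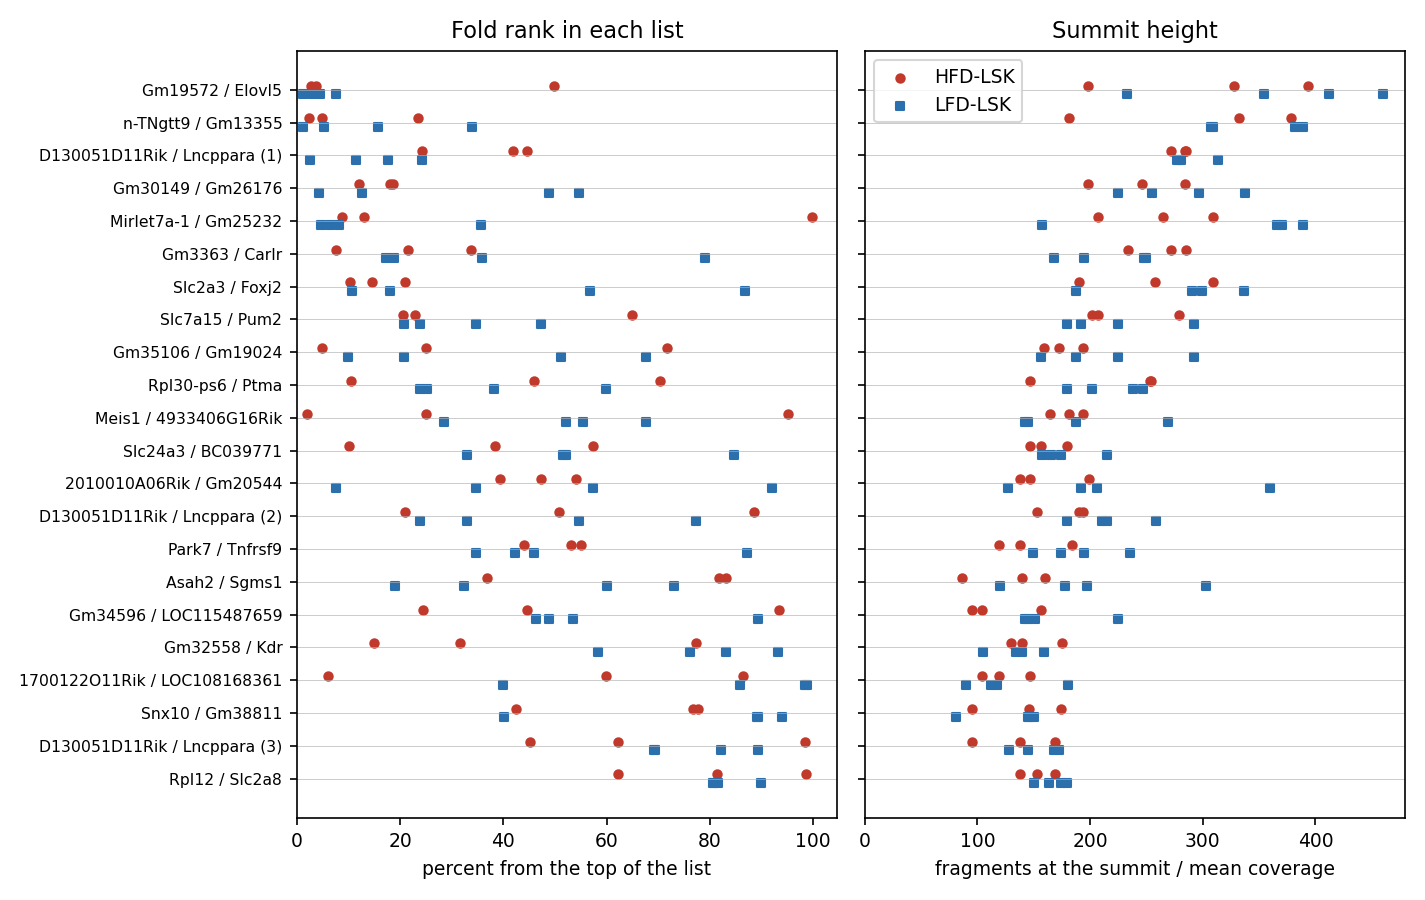
The 22 intergenic regions called in all 7 lists, named by their flanking genes and ordered by mean fold rank, with 1 circle per HFD-LSK library and 1 square per LFD-LSK library. Left, percent from the top of each list by fold; right, fragments at the summit divided by the mean coverage of the library. Ranks of single regions spread over 32.8 to 95.0 points, and summit heights over 1.15 to 3.51 times.

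The 5 widest consensus regions were the let-7c-2 region (3983 bp), a region between Gm34596 and LOC115487659 (2856 bp, nearest coding gene Aff3), the n-TNgtt9 region (2488 bp), a region between Kit and Kdr (2308 bp) and a region 3.84 kb from Nkx2-3 (2212 bp, 6 lists). Among regions called in 4 or more lists, the one between Kit and Kdr was also the farthest from any gene start. Kit encodes the stem cell factor receptor by which LSK cells are sorted, and Kdr the VEGF receptor. The region (chr5:75833889-75836196) lay 177 kb from Kit, 96.6 kb from Kdr, and 141 kb from the nearest start, of the noncoding Gm32727. It was called in all 7 lists, with 28, 47, and 15 fragments in HFD-LSK and 34, 24, 14, and 12 in LFD-LSK, which is 105 to 175 times the mean coverage. Others far from a start, at 79.3, 46.6, and 42.2 kb, were called in 4 lists each. They lay 119 kb from Klf4, a zinc finger factor of monocytes, 46.6 kb from Vrk1, and 21.0 kb from Wee1, the kinase that holds back entry into mitosis.

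Blood genes flanked 19 of the 588 intergenic regions (3.23%), against 2.30% of all consensus regions that overlapped or flanked one. The lists held 151 genes, and 16 of them had an intergenic region next to them. Stem cell transcription factors flanked 6 regions, myeloid genes 5, and inflammatory and immediate early genes 8. Genes of the surface and signaling list, the lymphoid list, and the megakaryocyte and erythroid list flanked none. With protein-coding genes alone as flanks, the count was 42 (7.14%), against 3.51% of all consensus regions, and 22 of the 42 (3.74% of intergenic regions, against 1.19% of all regions) had a stem cell transcription factor, 10 an inflammatory or immediate early gene, 7 a myeloid gene, 2 a lymphoid gene, and 1 each a surface gene (Kit) and an erythroid gene (Tfrc), with a region counted in each list that its 2 flanks belong to. A few loci carry the 22: 7 were at Zfp36l2, of which 6 form 1 cluster, and 3 were at Nkx2-3, and 12 of the 22 were called in 1 list. A region is counted at a flanking gene whatever the distance, so shares of intergenic regions and of all regions are set side by side without a test.

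Among stem cell factors, the region called in most lists lay 6.51 kb from Meis1, a homeodomain factor needed for stem cell self-renewal (chr11:19026163-19027803). It was called in all 7 lists with 33, 52, and 21 fragments in HFD-LSK and 40, 25, 19, and 24 in LFD-LSK. By rank it stood anywhere from 1.95% in HFD-LSK replicate 3 to 95.1% in HFD-LSK replicate 1, where the local background was 14.1 times the general level. By summit over mean coverage, it was at 164, 194, and 181 in HFD-LSK and 187, 145, 142, and 269 in LFD-LSK. A region 3.62 kb from Spred2, with Meis1 as the coding gene on its other side at 900 kb, was called in 6 lists.

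Mecom, which encodes the stem cell factor EVI1, was flanked by 2 regions. The nearer one, at 4.02 kb (1876 bp), was called in 6 lists, with 29, 44, and 9 fragments in HFD-LSK and 31, 33, and 17 in LFD-LSK replicates 1 to 3. The other, 85.4 kb from Mecom and 4.08 kb from the start of Actrt3, was called in 5 lists with 22 to 38 fragments. Next to Tal1, Fli1, and Hlf, the regions were single calls of 4, 6, and 17 fragments in 1 HFD-LSK library each. A region in 6 lists stood between Pdzk1ip1 and Cyp4x1, 1 gene beyond Tal1, with 10 to 28 fragments.

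Of the inflammatory and immediate early genes, Fos, an AP-1 subunit, had a region 8.38 kb beyond its 3′ end in 6 lists, with 32, 37, and 16 fragments in HFD-LSK and 28, 17, and 13 in LFD-LSK replicates 2 to 4. Ier2 had one 3.90 kb from the gene in 5 lists, with 9 to 44 fragments. The remaining 6 regions of this list, 2 at Fosb and 1 each at Fos, Tnfaip3, Rela, and Nfkbia, were called in 1 HFD-LSK library each. Among myeloid genes, Egr1 and Spi1, which encodes PU.1, had a region in 3 lists each, from both diets. Klf4, Tlr4, and Id2 had 1 call each. The call at Tlr4, the receptor for lipopolysaccharide, lay 1.01 kb beyond the gene in HFD-LSK replicate 3 and rested on 4 fragments, the fewest that library called. Of the 19 regions, 12 were called in 1 list.

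Intergenic regions formed 8 clusters of 3 or more with gaps of at most 25 kb. The cluster with most regions held 6 in 10.4 kb (chr17:84116462-84126870), between the noncoding 4933433H22Rik and Gm19696, 57.1 kb from Zfp36l2, whose product promotes mRNA decay in blood progenitors. Its regions were called in 1, 1, 1, 1, 4, and 5 lists, and the widest, of 2082 bp, had 14 to 21 fragments where called. The second cluster held 5 regions in 27.9 kb between D130051D11Rik and Lncppara, upstream of let-7c-2 and let-7b, and its calls were 7, 7, 4, 1, and 7 lists. Its coding neighbors were Wnt7b, a Wnt ligand, and Ppara, a nuclear receptor for fatty acids, at 63.7 and 61.4 kb from its ends. The Mir181c and Mir23a cluster was the third. The other 5 held 3 regions each, and 1 of these was the group beside Nkx2-3, a homeobox gene.

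Diet was then compared over the 7 libraries. Intergenic regions called per list were 98, 377, and 336 in HFD-LSK and 47, 150, 165, and 69 in LFD-LSK. HFD-LSK replicate 1 lay below LFD-LSK replicates 2 and 3, so the diets overlapped. The means were 270 ± 151 (SD, n = 3) and 108 ± 58.5 (n = 4), a difference of 163 (exact permutation test over 35 splits, two-sided, p = 0.114, adjusted p = 0.229 over 4 comparisons). As a share of all regions called in the same list, intergenic regions were 1.10%, 2.90%, and 2.99% in HFD-LSK and 0.648%, 1.48%, 1.68%, and 1.06% in LFD-LSK. The difference was 1.11 percentage points (exact permutation test, p = 0.114, adjusted p = 0.229).

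The gap in counts was smaller when the lists were put on a common footing. With the same number of peaks from each list, 6921, the strongest by fold, the counts were 42, 48, and 122 in HFD-LSK and 39, 47, 61, and 69 in LFD-LSK, a difference of 16.7 (exact permutation test, p = 0.6). With 1 calling limit for all lists, in multiples of mean coverage, they were 86, 93, and 73 in HFD-LSK and 47, 81, 86, and 69 in LFD-LSK, a difference of 13.25 (exact permutation test, p = 0.371). Neither setting changed the direction of the means.

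**Figure D5:**
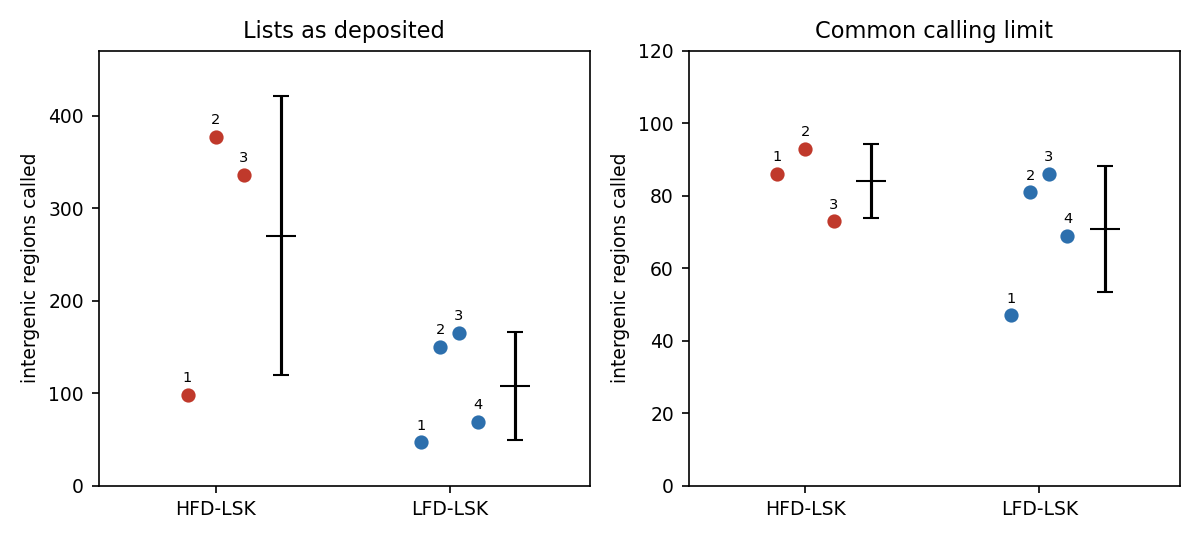
Intergenic regions called in each list, as deposited (left) and with 1 calling limit of 101 times the mean coverage for all lists (right). Points are libraries with their replicate numbers, and black bars are the mean ± SD of 3 HFD-LSK and 4 LFD-LSK libraries, which overlap in both panels.

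By diet, 204 intergenic regions (34.7%) were called in lists of both diets, 341 (58.0%) in HFD-LSK lists alone and 43 (7.31%) in LFD-LSK lists alone. Over all consensus regions these shares were 76.6%, 20.8%, and 2.58%. The sets are not matched in number of lists, since 55.4% of intergenic regions and 19.0% of all regions were called in 1 list. Among regions called in 1 list, HFD-LSK held 286 and LFD-LSK 40 of the intergenic regions. Of all consensus regions called in 1 list, they held 2449 and 342. The larger HFD-LSK share was thus not read as a trait of intergenic regions. Of the 341, 286 were in 1 HFD-LSK list, 53 in 2, and 2 in all 3. Of the 43, 40 were in 1 LFD-LSK list, 2 in 2, and 1 in 3, the last between Gm34952 and Gm24298, 76.2 kb from Hmga2.

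The 2 regions called in all 3 HFD-LSK lists and in no LFD-LSK list are to be read against 44 such regions in 14659, which is 0.3%. One lay between Ddit4, which encodes an inhibitor of mTORC1, and Anapc16, which encodes a subunit of the anaphase-promoting complex (chr10:59969869-59970749). It had 29, 22, and 14 fragments and stood at 73.2%, 70.2%, and 91.1% from the top. The other lay between the noncoding Gm32328 and Gm32403 (chr6:51172331-51173362), with 25, 36, and 11 fragments and ranks of 83.8%, 76.8%, and 51.2%. Presence in 3 of 3 against 0 of 4 lists gives p = 0.0286 by Fisher's exact test, two-sided, the minimum for 3 against 4 lists, and adjusted p = 1 over the 14659 regions. No region was called in all 4 LFD-LSK lists and in no HFD-LSK list, among the intergenic regions or among all regions (0%). The count of 2 rested on HFD-LSK replicate 1: without that library, 53 intergenic regions, of 584 regions in all, were called in both other HFD-LSK lists and in no LFD-LSK list.

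Of the 22 intergenic regions called in all 7 lists, none ranked nearer the top in every HFD-LSK library than in every LFD-LSK library, against 162 of all 4395 such regions (3.69%). In the other direction, there was 1 of 22, against 66 of 4395 (1.5%). This was the widest region, upstream of let-7c-2, at 24.3%, 41.8%, and 44.5% from the top in HFD-LSK and 17.7%, 11.5%, 2.61%, and 24.2% in LFD-LSK (mean difference of 22.9 points, two-sided exact permutation p = 0.0571, adjusted p = 0.939 over the 4395 regions). HFD-LSK replicate 1 and LFD-LSK replicate 4 stood next to each other. Its summits were 284, 272, and 285 times the mean coverage in HFD-LSK and 314, 279, 277, and 281 times in LFD-LSK, which overlap, while the local background was 2.83 to 28.4 times the general level in HFD-LSK and 1.00 to 2.65 times in LFD-LSK. Ranked by summit fragments, or by −log10 p, in place of fold, no region of the 22 separated the diets in that direction. The split of all separated regions, 162 nearer and 66 farther in HFD-LSK, became 65 and 184 when ranks were counted from the top of the list rather than in percent of its length, so no direction was read from it.

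The median fold rank of the intergenic regions was 78.1% ± 5.20 (n = 3) in HFD-LSK and 77.5% ± 3.14 (n = 4) in LFD-LSK, a difference of 0.60 points (exact permutation test, p = 0.914). Peak width in intergenic regions was 527 bp ± 95.1 and 492.5 bp ± 102, a difference of 34.8 bp (exact permutation test, p = 0.657). Both differences lay within the spread between libraries of 1 diet, and both changed sign under some settings.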

How the data were processed

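H3K4me3 CUT&Tag of 3 HFD-LSK and 4 LFD-LSK libraries was analyzed from the peak lists that the authors deposited, 1 per library. The fold enrichment, −log10 p, −log10 q, and the integer score of each peak are MACS2 values as deposited by the authors. Fold is a ratio of summit height to local background, with a pseudocount of 1 added to each. The submitters' processing notes name Trim Galore, Bowtie2, Picard, MACS2, bedtools, HOMER, featureCounts, and GRCm38, without versions, while the methods of the study name another peak caller, SEACR, and another build, GRCm39, for CUT&Tag. Coding gene starts of GRCm38 lay at 79.3% to 91.6% of peaks and those of GRCm39 at 7.52% to 8.32%, so GRCm38 was used. No list holds read counts, so depth is known only through summit fragments recovered by inverting the MACS2 fold and p with its pseudocount of 1. Local background is the value implied by the fold. Large multiples of the general level can rest on very few background fragments.

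Peaks that overlapped or touched were merged. Genes came from RefSeq GRCm38.p6, and a gene with no known strand counted both ends as starts. Fold ranks are percentages from the top of a list. Flanking genes are the nearest on either side. Diets were compared by exact permutation of 7 libraries into 3 and 4 (35 splits, smallest two-sided p 0.0286), region classes by exact sign flips within libraries, and presence by Fisher's exact test. Benjamini-Hochberg adjustment ran over all regions or over the stated comparisons. Replicate numbers were not treated as pairs. Correlations of rank deviations between libraries of the same number were low (0.186, 0.0167, and 0.0522), which cannot exclude pairing. The paper states that its differential peak analysis took batch and pairing into account. The labels do not say which cohort or pair a library belongs to.

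The regions named are those called in every list of 1 diet and none of the other, the 10 in all 7 lists nearest the top, the 5 widest, the 5 farthest from a start in 4 or more lists, up to 20 flanked by a blood gene, the 3 clusters with most regions, and those that separate the diets by rank. Other regions, among them the miRNA loci, were chosen after their values were seen. The members and lists were chosen with earlier results of these data known. Alternatives were stricter q, equal numbers of peaks, other merging, coverage, distance, and rank rules, libraries left out, and, added after seeing the data, ranks counted from the top, ranks by summit fragments, and a common calling limit. Statistical code was tested on simulated data. Python 3.11.15, numpy 2.4.6, pandas 2.3.3, scipy 1.17.1, and matplotlib 3.10.9 were used. The sequence of the regions was not analysed here, and 1 region that the naming rule picks is not reported here.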

Additional observations from a re-analysis of the deposited data

Results flagged for a closer look

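For the 22 intergenic regions called in all 7 lists, and for the other measures compared, 28 groups of 4 LFD-LSK libraries were examined for a library far from the rest, and chance alone marks about 1 in 20 such groups. In 4 of them, 1 library stood apart. LFD-LSK replicate 1 ranked the region between Gm34596 and LOC115487659 at 89.2% from the top, against 46.3% to 53.5% in the other 3. LFD-LSK replicate 3 ranked the let-7a-1 region at 35.8%, against 4.73% to 8.10%, and the region between Snx10 and Gm38811 at 40.2%, against 89.1% to 93.9%. LFD-LSK replicate 2 ranked the region between Rpl12 and Slc2a8 at 89.9%, against 80.6% to 81.6%, with a local background of 18.6 times the general level there. The 3 HFD-LSK libraries are too few for this examination.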

How the results depend on the processing

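Of 215 values recomputed, 13 turned in sign, 35 others were counts or untested values that moved, and no test crossed the threshold of 0.05. With 1 library left out, the diet tests had too few splits to reach 0.05 at all. Without HFD-LSK replicate 1, calls and share gave p = 0.0667 by the exact permutation test, the lowest of these. Tested values that kept direction and side could still change in size. The diet difference in calls was 16.7 with equal numbers of peaks and 13.25 with a common calling limit, 77.25 for regions in at least 2 lists, and 102 beyond 10 kb, and the difference in share was 0.234, 0.0520, 0.546, and 0.746 points. The mean rank and width differences between intergenic and promoter regions kept their direction. They were 30.99 to 33.3 points and -405 to -325 bp without 1 library, and 25.5 points and -239 bp with equal numbers of peaks. With a common limit they were 21.8 points and -275 bp, and the rank difference there did not have the same sign in every library. The diet difference in median rank was -3.02 points with equal numbers of peaks, -6.20 for regions in at least 2 lists, -1.13 beyond 1 kb, and -8.92 with a common calling limit. The diet difference in width was -9.71 bp at −log10 q of at least 5, -15.6 with calls covering 50%, and -47.9 beyond 10 kb. Without 1 library, the rank difference was -3.10 to 3.30 points (-3.10 when HFD-LSK replicate 2 was left out, -0.87 and -0.44 when LFD-LSK replicate 1 or 3 was) and the width difference -16.4 to 78.25 bp (-16.4 when HFD-LSK replicate 2 was left out, -12.7 when LFD-LSK replicate 4 was). A replicate block over the 3 shared numbers was also run, though these are not known to pair the libraries. The differences were then 150 calls (exact p = 0.25) and 1.06 points of share (exact p = 0.25). Those of rank and width were 1.10 points (exact p = 0.75) and -12.7 bp (exact p = 1). The 3 pairs cannot give p under 0.25.

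Regions called in all HFD-LSK lists alone were 0 with equal numbers of peaks, 1 beyond 10 kb, and 2 to 53 with 1 library left out (53 when it was HFD-LSK replicate 1, 4 for HFD-LSK replicate 3, 9 for LFD-LSK replicate 2, and 6 for LFD-LSK replicate 3). Those called in all LFD-LSK lists alone were 0 to 2 (2 when HFD-LSK replicate 2 was left out, 1 for LFD-LSK replicate 1). Regions nearer the top in HFD-LSK were 1 beyond 1 kb and 0 to 3 without 1 library (3 without HFD-LSK replicate 1, 1 each without HFD-LSK replicate 3 and LFD-LSK replicates 3 and 4). Regions farther were 0 at the stricter q, with 50% coverage, and with ranks by −log10 p or summit fragments, and 1 to 2 without 1 library (2 without HFD-LSK replicate 2 or LFD-LSK replicate 3). Differences in calls and share were 110 to 249 and 0.783 to 1.73 points without 1 library, with both upper values when HFD-LSK replicate 1 was left out.

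Regions flanked by blood genes were 9 with equal numbers of peaks, 7 in at least 2 lists, 11 beyond 10 kb, 42 with coding flanks, and 7 with a common limit. Clusters were 5 at the stricter q, with 500 bp merging, or beyond 10 kb, 3 with equal numbers or a common limit, 2 for regions in at least 2 lists, and 17 beyond 1 kb. The median distance was 9.04 kb beyond 1 kb, 21.2 kb beyond 10 kb, and 9.48 kb with a common limit, and the median number of lists was 3 for regions in at least 2. Intergenic regions numbered 190 with equal numbers of peaks, 262 in at least 2 lists, 338 beyond 10 kb, and 177 with a common limit. These counts fall where a setting keeps fewer peaks or regions by construction; the causes of the other shifts were not tested. A region under a library's calling limit is missing from its list, so absence from a list is not absence of H3K4me3.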
